A study of Mus musculus with 6 samples.

Results

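The 34 genes described here are 13 collagens and 21 further genes that meningeal fibroblasts are known for, followed in whole pineal glands of newborn mice with and without Neurod1. The members were taken by name, each through probe sets annotated to that gene alone, with the probe set of highest mean over the 6 arrays standing for the gene. Of the 34, 33 had a value among 18193 named genes, and 29 passed a filter that left out the dimmest 40% of probe sets (a mean signal of about 105). Dpt, Alx4, Slc6a13 and Slc22a6 were below that filter, and Fbn1 was not analysed here. The members were not chosen by measured values, but their choice was made with earlier results of these data known.

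The wildtype group was 3 pools of glands from 129 mice at postnatal day 0, and the other group was 3 pools from homozygous Neurod1 knockout mice, labelled 129, of the same age. Every pool held 3 glands taken by day from mice under light and dark phases of 12 h each, and each was run on 1 Affymetrix array after a single round of RNA amplification. The knockout covers the whole animal as labelled, with no cell type or promoter named, and the whole gland was measured, so fewer cells of a type and less RNA per cell cannot be told apart. The pools carry the numbers 1 to 3 in each group, and by the labels both pools of a number share a date.

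Signals are linear fluorescence intensities, scaled by array to a 2% trimmed mean near 500. The trimmed means lay between 499.5 and 499.96, and the medians between 132 and 184. The targeted gene, Neurod1, a helix-loop-helix factor of neurons and of the pineal, had signals of 9027, 9301 and 7519 in the wildtype pools and 390.2, 524 and 122.5 in the knockout pools. Its log2 difference, knockout minus wildtype, was −4.67 ± 0.45 (SE, adjusted p = 0.0362, limma with Benjamini-Hochberg adjustment), and it was the single gene of 12797 tested to pass an adjusted p of 0.05. The pineal markers Tph1, the first enzyme of serotonin synthesis, and Otx2, a transcription factor of the gland, had signals of 2755 to 15095 and of 9618 to 15178 over the 6 arrays.

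Meningeal fibroblasts form the connective tissue membranes around the brain, which also cover the pineal gland and enter it along its vessels. They lay down fibrillar collagens, which assemble into fibres, and basement membrane collagens of type IV, which form sheets under epithelia and around vessels, and small leucine-rich proteoglycans that bind the fibres. The same cells are known for retinoic acid synthesis through Aldh1a2, for the forkhead factors Foxc1 and Foxc2, and for the growth factor Igf2. Collagen genes are also used by pericytes, vessel walls, cartilage and bone.

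The collagens of the list had higher mean signals in the knockout pools, and the other members were closer to level. Of 29 tested members, 26 had a higher mean log2 value in knockout (89.7%), against 53.2% of all genes tested, and Col15a1, Fbln1 and Foxd1 had a lower one. The median log2 difference was 0.22 over the members and 0.03 over all genes. It was 0.45 over the 13 collagens, of which 12 had a higher mean, and 0.10 over the 16 other tested members, of which 14 did.

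No member passed the test: 0 of 29 had an adjusted p under 0.05 in limma, where the share over all genes was 0.00781%, and the same share of all genes and 0 members passed with the pool number as a block. At an unadjusted p under 0.05 without the block, 1 of 29 members was higher in knockout, Col6a2, against 1.98% of all genes. Adjusted p-values of the tested members were 0.998 or above in that fit. With the block, unadjusted limma p-values were 0.027 for Col6a2, 0.036 for Pdgfra, 0.040 for Mgp and 0.048 for Col5a1. Their adjusted p was 0.768, and the other tested members had unadjusted values above 0.05. The share of all genes under 0.05 was not counted for the fit with the block.

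Col1a2, Col3a1, Col4a1, Col6a2 and Mgp had all 3 knockout signals above all 3 wildtype signals, which is 5 of 29 members (17.2%), where the share was 5.77% of all genes. No member had groups apart in the lower direction, where the share was 4.33% of all genes. The members that were higher in knockout within each of the 3 pool numbers were 14 of 29 (48.3%), against 14.9% of all genes, and Col15a1 was lower within each.

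The scaling of the arrays bears on these counts. Groups apart and directions within pool numbers were counted on the deposited scaling only. On that scaling the array medians ran from 132 in wildtype pool 1 to 184 in knockout pool 1. The gap between groups was small for Col4a1, 8949 against 9013, and for Mgp, 4235 against 4297. With each array centred on its own median, the median of all genes moved to −0.11 and 16 members had a higher mean and 13 a lower one, while the share of all genes with a higher mean was 37.7%. This centring shifts the differences of all genes by the same amount, so the member median stayed 0.19 above that of all genes by construction. After quantile normalization it was 0.12 above, and 22 of 29 members had a higher mean. The count also rested in part on knockout pool 3, without which 19 of 29 members had a higher mean and the member median was 0.09 above that of all genes. Without knockout pool 1 the member median was 0.37, which was 0.38 above that of all genes.

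**Figure D1:**
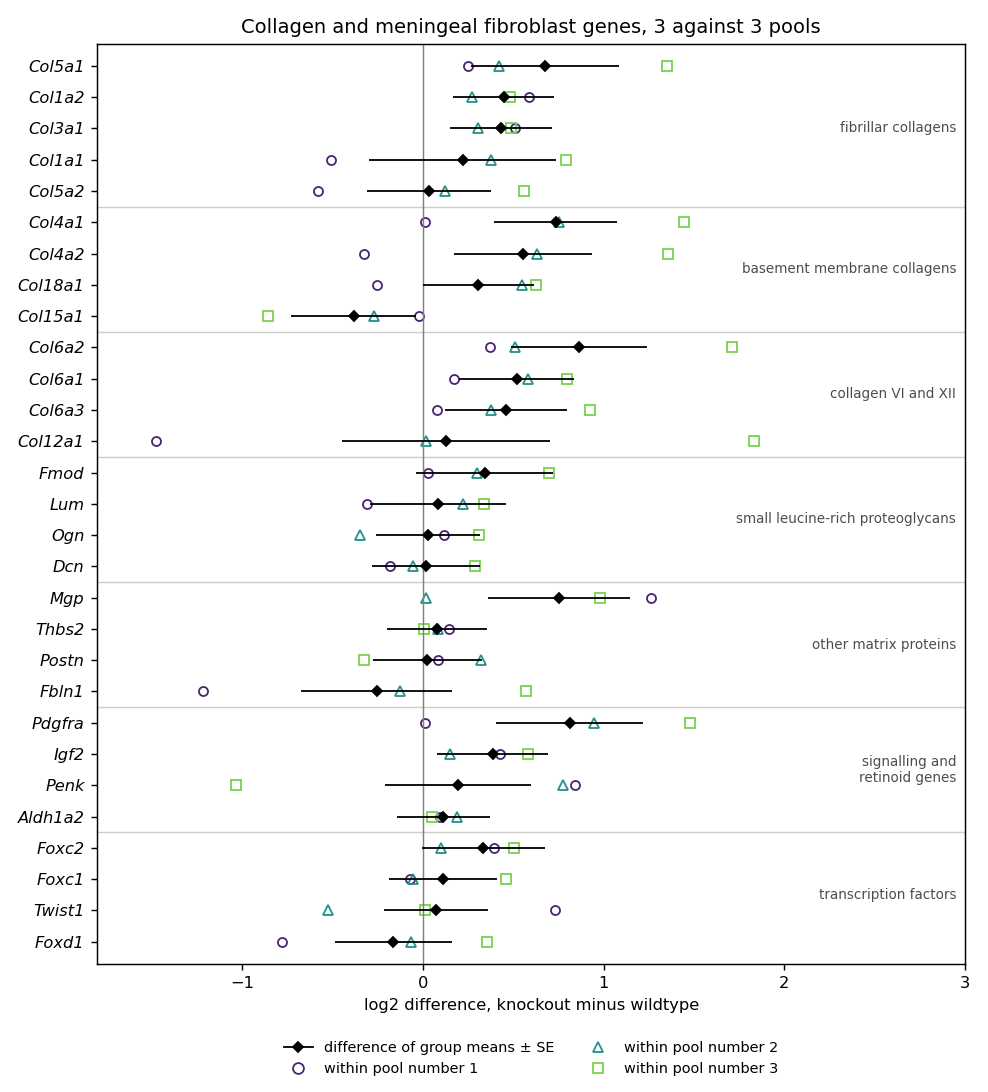
Log2 differences (knockout minus wildtype, horizontal axis) of the 29 tested members, ordered by role. Diamonds with bars are differences of the group means ± SE of the limma fit (3 against 3 pools), and open symbols are the differences within pool numbers 1, 2 and 3. Collagen diamonds lie above 0 except that of Col15a1, and within pool number 3 most open squares of the collagens lie further above 0 than the circles of number 1.

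The difference was uneven over the pool numbers. Within numbers 1, 2 and 3 the member median was 0.08, 0.23 and 0.56, while that of all genes was 0.11, 0.00 and −0.06. The collagens had medians of 0.01, 0.38 and 0.80, with 7, 12 and 12 of 13 higher in knockout. In number 1 the members were therefore not above the median of all genes.

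The pools of a group were not alike for these genes. Wildtype pool 3 had the lowest signal of the 6 for 14 of the 29 tested members and the highest for 0 of them. Such counts were not made over all genes. Its collagens had a median log2 level of −0.50 relative to each gene's mean over the 6 arrays, where all genes had −0.02. Genes of matrix turnover had −0.62 in that pool, endothelial markers −0.49 and choroid plexus markers 1.18. The other wildtype pools had collagen medians of −0.01 and −0.07, and knockout pools 1, 2 and 3 had 0.13, 0.24 and 0.39. Without wildtype pool 3 the collagen median difference was 0.33, with 10 of 13 higher, and without knockout pool 3 it was 0.50, with 9 of 13 higher. Without both pools numbered 3 it was 0.23, with 9 of 13 higher.

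Knockout pool 1 was split by gene. It had the highest signal for 7 of the 29 members and the lowest for 7 others, whereas knockout pools 2 and 3 had the highest for 8 and 10 and the lowest for 2 and 3. It also differed in how probe sets of the same gene compared: of 25 further probe sets of the members above the filter, 9 had their lowest log2 ratio to the gene's main probe set there, against 2 to 4 in each other pool. The 4 lowest of these relative log2 ratios in knockout pool 1 were −2.23 for Col5a1, −1.28 for Ogn and −1.06 for both Col3a1 and Foxc1. These counts for knockout pool 1 were not made over all genes, whose median relative level there was 0.17. The part of the probe set pattern in the differences was not tested.

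The fibrillar collagens come first, in which type I is built from Col1a1 and Col1a2 chains, type III from Col3a1 and type V, which controls fibre diameter, from Col5a1 and Col5a2. All 5 had higher means in knockout, with a median log2 difference of 0.44. Col1a2 had signals of 25535, 28014 and 22101 in the wildtype pools and 38407, 33877 and 30863 in the knockout pools. All knockout pools were above all wildtype pools, and the highest was knockout pool 1. The means were 25217 ± 2969 and 34382 ± 3797 (SD, n = 3), a log2 difference of 0.45 ± 0.28 (SE, adjusted p = 0.998, limma).

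Col3a1 followed the same order of groups, with 21549, 22726 and 17748 in wildtype and 30739, 28089 and 24934 in knockout. The lowest knockout pool was above the highest wildtype pool, and the log2 difference was 0.44 ± 0.28 (SE). Both genes lie near the top of the intensity range, and under quantile normalization their differences were 0.02 for Col1a2 and 0.08 for Col3a1. A further probe set of Col3a1 gave overlapping groups, with 6856, 10345 and 9196 in wildtype and 5671, 11630 and 14458 in knockout, and a log2 difference of 0.18. For Col1a2 a further probe set gave 0.40, with 20679 to 22825 in wildtype and 27284 to 31124 in knockout.

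The partner chain of Col1a2 was more scattered. Col1a1 had signals of 14416, 11643 and 23267 in wildtype and 10121, 15144 and 40403 in knockout. Both pools numbered 3 were the highest of their group, and knockout pool 1 was the lowest of all 6. The log2 difference was 0.22 ± 0.52 (SE), and leaving out knockout pool 3 gave −0.35 and leaving out knockout pool 1 gave 0.65.

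Col5a1 had 2183, 2420 and 890 in wildtype against 2608, 3256 and 2332 in knockout, a log2 difference of 0.68 ± 0.41 (SE). Wildtype pool 3 was far below the rest, and the difference was 0.23 without it. A further Col5a1 probe set gave −0.31, with 88.5 in knockout pool 1 and 770 and 783 in the other knockout pools, and another gave 0.40. Col5a2, the neighbour of Col3a1 on its chromosome with 0 protein-coding genes between them, had 6387 to 7783 in wildtype and 4771 to 9446 in knockout, a log2 difference of 0.04 that turned negative under quantile normalization and under median centring.

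Among the basement membrane collagens, Col4a1 and Col4a2, which wind together into type IV collagen, had higher means in knockout. Col4a1 had signals of 8949, 6090 and 4702 in the wildtype pools and 9013, 10294 and 12851 in the knockout pools. Wildtype pool 1 reached almost the level of knockout pool 1, and the other pools were well apart. The means were 6581 ± 2165 and 10719 ± 1954 (SD, n = 3), a log2 difference of 0.74 ± 0.34 (SE, unadjusted p = 0.0596 in limma, adjusted p = 0.998), and a further probe set gave 0.24.

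Col4a2 had 2363, 1375 and 856 in wildtype and 1879, 2156 and 2257 in knockout. The groups overlapped because wildtype pool 1 was the highest of the 6. The log2 difference was 0.56 ± 0.38 (SE), and 0.21 without wildtype pool 3. Within the pool numbers Col4a1 and Col4a2 had the same order, with 0.01 and −0.32 in number 1, 0.75 and 0.63 in number 2, and 1.44 and 1.36 in number 3.

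Col15a1 and Col18a1 belong to the basement membrane zone collagens whose ends can be cut into endostatin-like fragments. Col18a1 had 435 to 817 in wildtype and 679 to 955 in knockout, a log2 difference of 0.31 ± 0.31 (SE), which was 0.08 without wildtype pool 3. Col15a1 was a dim exception, with 120.5, 167 and 159 in wildtype and 118, 133 and 70.5 in knockout. It was lower within each pool number, and the log2 difference was −0.38 ± 0.35 (SE), or −0.19 without knockout pool 3.

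Type VI collagen, a beaded filament network around cells, is made of Col6a1, Col6a2 and Col6a3 chains. Col6a2 had 1952, 2006 and 838 in wildtype and 2537, 2875 and 2836 in knockout. The knockout pools were close together and above every wildtype pool, and wildtype pool 3 was far below the rest. The means were 1599 ± 659 and 2749 ± 185 (SD, n = 3), a log2 difference of 0.86 ± 0.38 (SE) with a 95% interval from 0.01 to 1.72, an unadjusted p of 0.0475 in limma and an adjusted p of 0.998. Without wildtype pool 3 the difference was 0.46.

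A further Col6a2 probe set gave 985, 1280 and 984 in wildtype and 1608, 1527 and 1615 in knockout. Here too every knockout pool was above every wildtype pool, wildtype pool 3 was level with wildtype pool 1, and the log2 difference was 0.54. Col6a1, which adjoins Col6a2 with 0 protein-coding genes between them, had 1639 to 2859 in wildtype and 2699 to 3234 in knockout, a log2 difference of 0.52 ± 0.32 (SE). Col6a3, the long chain of type VI, had 2504 to 3708 against 2882 to 4823 and a difference of 0.46 ± 0.34 (SE). All 3 genes were higher in knockout within each pool number.

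Col12a1, a collagen that sits on the surface of fibres, had 1571, 1388 and 922 in wildtype and 541, 1407 and 3384 in knockout. Knockout pools 1 and 3 were the lowest and the highest of the 6, the log2 difference was 0.13 ± 0.58 (SE), and leaving out the first of these gave 0.77 and the other −0.51, and it was also negative under median centring. The direction for Col12a1 therefore rested on single pools.

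**Figure D2:**
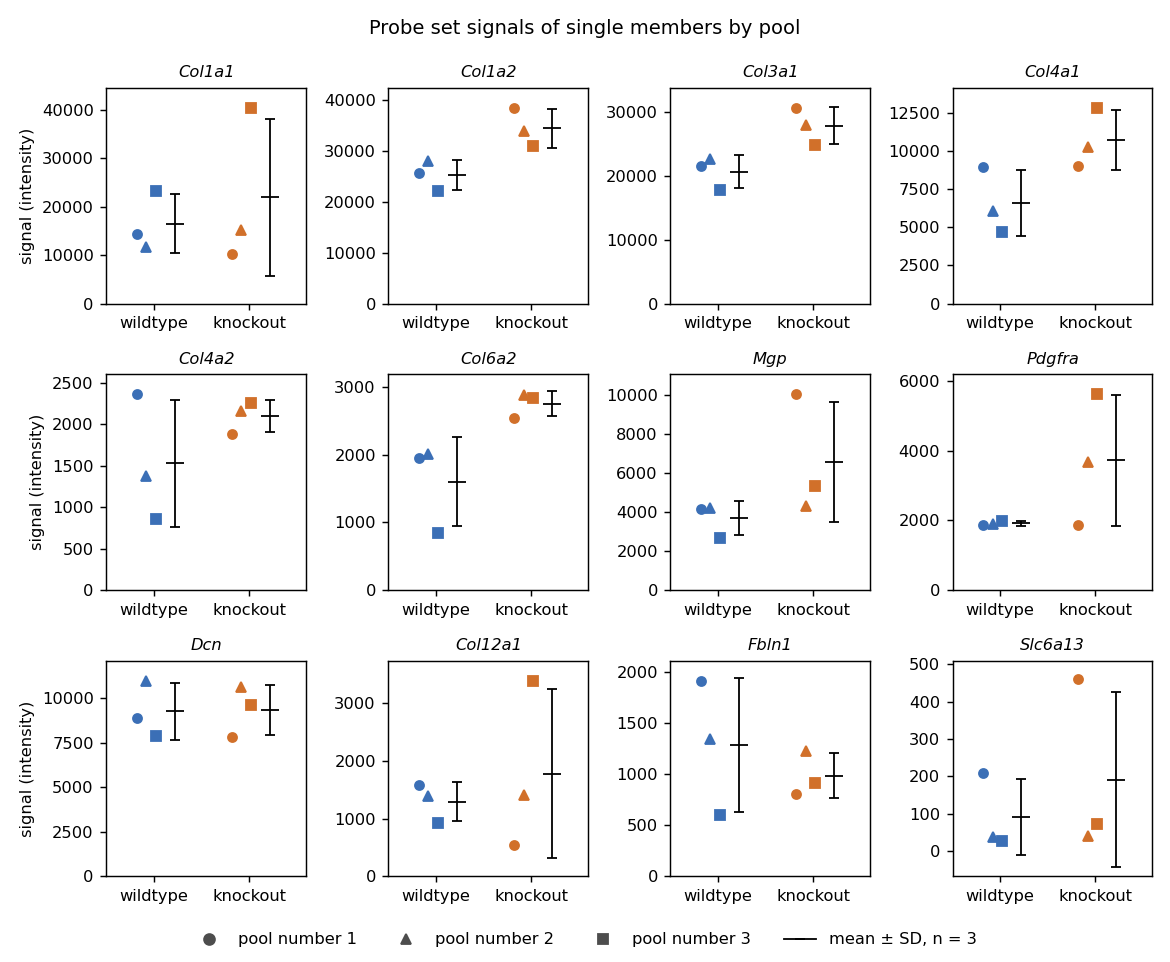
Probe set signals (intensity, linear axes that differ by panel) of 12 members in each pool, with circles, triangles and squares for pool numbers 1, 2 and 3 and bars for the mean ± SD over 3 pools. The knockout signals of Col1a2, Col3a1, Col4a1, Col6a2 and Mgp lie above all wildtype signals, the squares of wildtype are low for Col4a2 and Col6a2, and the Dcn groups overlap.

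Sequences at the starts are shown for the collagens whose groups did not overlap in the probe set used, and for Col4a2 as the neighbour of Col4a1. They are the 250 bases before the transcription start in RefSeq, build GRCm38.p6, at chr6:4505368-4505617 (plus strand) for Col1a2, chr1:45311288-45311537 (plus strand) for Col3a1 and chr10:76623631-76623880 (minus strand) for Col6a2. Col4a1 and Col4a2 run in opposite directions from starts that overlap. For this pair the 22 bases from the Col4a2 start to the Col4a1 start, at chr8:11312805-11312826 (plus strand), are given. These bases are transcribed in both genes and are not upstream of either. Capitals mark 4 motifs that were searched on both strands: the CCAAT box, spelled CCAAT, the TATA box, spelled TATAAA, the GC box, spelled GGGCGG, and an E box, spelled CAGATG, the kind of site that basic helix-loop-helix factors bind.
Col1a2 upstream: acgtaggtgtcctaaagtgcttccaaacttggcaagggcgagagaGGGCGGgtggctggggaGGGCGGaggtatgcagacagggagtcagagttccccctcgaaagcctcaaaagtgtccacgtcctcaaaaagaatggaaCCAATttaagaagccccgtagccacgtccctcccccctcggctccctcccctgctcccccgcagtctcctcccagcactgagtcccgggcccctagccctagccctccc
Col3a1 upstream: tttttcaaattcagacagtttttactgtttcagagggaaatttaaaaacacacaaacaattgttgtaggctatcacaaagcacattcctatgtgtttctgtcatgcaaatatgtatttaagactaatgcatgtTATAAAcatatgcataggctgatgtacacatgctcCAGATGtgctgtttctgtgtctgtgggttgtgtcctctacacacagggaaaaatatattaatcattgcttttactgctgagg
Col6a2 upstream: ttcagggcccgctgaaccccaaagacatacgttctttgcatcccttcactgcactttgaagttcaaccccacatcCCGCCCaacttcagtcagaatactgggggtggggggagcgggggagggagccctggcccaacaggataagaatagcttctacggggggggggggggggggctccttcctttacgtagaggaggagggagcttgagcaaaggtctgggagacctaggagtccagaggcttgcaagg
Col4a1 and Col4a2 between starts: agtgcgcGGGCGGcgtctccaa

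In Col1a2 a CCAAT box began 109 bases before the start, and GGGCGG, the letters of a GC box, began 205 and 188 bases before it. Col3a1 had TATAAA 117 bases and the E-box letters CAGATG 82 bases before the start, and Col6a2 had GGGCGG on the opposite strand 175 bases before it. The 300-base windows of Col4a1 and Col4a2 shared 78 bases, which include a single GGGCGG within the stretch that both genes transcribe. None of these motifs holds another, and a match is a description of letters and not a binding site.

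Promoter windows were found for 24 of the 33 measured members. These genes had 33 windows. CCAAT was in 15 of the 33 windows (45.5%), against 37.4% of all 32851 windows of the same length, and GGGCGG was in 14 (42.4%), against 35.7%. TATAAA was in 6 windows (18.2%), against 13.6%. CAGATG was in 5 windows (15.2%), those of Col3a1, Dpt, Fmod, Pdgfra and Slc22a6, against 17.2%.

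Of the small leucine-rich proteoglycans, which coat and space collagen fibres, Dcn, Lum and Ogn had nearly level means and Fmod a higher one in knockout. Dcn (decorin) had signals of 8912, 11005 and 7883 in wildtype and 7851, 10614 and 9637 in knockout. The groups lay on top of each other, with means of 9266 ± 1591 and 9367 ± 1401 (SD, n = 3). The log2 difference was 0.02 with a 95% interval from −0.66 to 0.70, and it was negative under quantile normalization and median centring.

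Lum (lumican), next to Dcn with 0 protein-coding genes between them, had 5103 to 7687 in wildtype and 4114 to 8993 in knockout, a log2 difference of 0.09 ± 0.38 (SE). Ogn (osteoglycin) had 11319 to 13615 against 10716 to 14069 and a difference of 0.03 ± 0.29 (SE), and a further probe set gave −0.24. The differences of Lum and Ogn were negative under median centring, and that of Ogn also under quantile normalization. Fmod (fibromodulin) had 3040, 1646 and 1310 in wildtype and 3098, 2033 and 2153 in knockout, a difference of 0.34 ± 0.38 (SE), with the pools numbered 1 the highest of each group, and 0.09 without wildtype pool 3.

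Among the other matrix proteins, Mgp, the matrix Gla protein that inhibits calcification, had 4174, 4235 and 2682 in wildtype and 10066, 4297 and 5330 in knockout. Knockout pool 1 stood far above the rest, while knockout pool 2 was barely above wildtype pool 2. The means were 3697 ± 880 and 6564 ± 3076 (SD, n = 3), and the log2 difference of 0.75 ± 0.39 (SE) was 0.40 without knockout pool 1.

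Postn (periostin) and Thbs2 (thrombospondin 2), secreted proteins that bind collagen and cells, were nearly level. Postn had 3619 to 4088 in wildtype and 3252 to 5115 in knockout, a log2 difference of 0.03 ± 0.30 (SE) that turned negative under median centring. Thbs2 had 10311 to 12470 against 11414 to 12535 and a difference of 0.08 ± 0.28 (SE), which turned negative under median centring and quantile normalization. A further Thbs2 probe set gave −0.20.

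Fbln1 (fibulin 1), a protein of elastic fibres and basement membranes, had 1914, 1346 and 604 in wildtype and 804, 1231 and 917 in knockout. The wildtype pools spanned the knockout pools, and the log2 difference of −0.26 ± 0.42 (SE) was 0.09 without wildtype pool 1 and −0.71 without wildtype pool 3. Dpt (dermatopontin) was under the filter, with signals of 13.7 to 151 in wildtype and 33.0 to 111 in knockout.

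Of the signalling genes, Pdgfra, the receptor for platelet-derived growth factor on fibroblasts and their precursors, had signals of 1857, 1883 and 1993 in wildtype and 1872, 3672 and 5620.1 in knockout. The wildtype pools were close together, knockout pool 1 lay among them, and the other knockout pools were above. The means were 1911 ± 72.5 and 3721 ± 1874 (SD, n = 3), a log2 difference of 0.81 ± 0.41 (SE, unadjusted p = 0.0757 in limma, adjusted p = 0.998).

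Leaving out knockout pool 1 gave a Pdgfra difference of 1.23, and leaving out knockout pool 3 gave 0.45. A further, dimmer Pdgfra probe set separated the groups, with 166, 211 and 216 in wildtype and 387, 290.2 and 386 in knockout. All knockout pools were above all wildtype pools there, knockout pool 1 included, and the log2 difference was 0.73.

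Igf2, a growth factor that meninges and choroid plexus secrete, had 21552, 32600 and 20780 in wildtype and 28985, 36214 and 31085 in knockout. Wildtype pool 2 lay within the knockout range, and pools numbered 2 were the highest of each group. The log2 difference was 0.39 ± 0.31 (SE), and 0.02 under quantile normalization. It was higher in knockout within each pool number, by 0.43, 0.15 and 0.58.

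Aldh1a2, which makes retinoic acid, was the steadiest of the signalling genes over the pools, with 1204 to 1276 in wildtype and 1248 to 1462 in knockout. The log2 difference was 0.11 ± 0.26 (SE), and it was −0.03 with median centring. Penk, the enkephalin precursor, was dim, with 131, 119.5 and 240 in wildtype and 266, 232 and 97.7 in knockout, and its difference of 0.19 ± 0.40 (SE) had opposite signs over the pool numbers.

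The transcription factors of the meninges and the head mesenchyme overlapped between the groups. Foxc1 had 1762 to 2080 in wildtype and 1678 to 2703 in knockout, a log2 difference of 0.11 ± 0.30 (SE) that turned negative under median centring. A further Foxc1 probe set gave 783, 2772 and 3740 over the knockout pools, against 1647 to 2459 in wildtype. Foxc2 had 662.5, 882 and 1145 in wildtype and 883, 948 and 1644 in knockout, a difference of 0.33 ± 0.34 (SE). It was higher in knockout within each pool number, but the difference was 0.06 without knockout pool 3 and 0.14 without wildtype pool 1.

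Foxd1, a forkhead factor of stromal precursors, had 1984 to 2417 in wildtype and 1394, 2282 and 2550 in knockout. The log2 difference was −0.16 ± 0.32 (SE) and 0.10 without knockout pool 1, the lowest of the 6. Twist1, a mesenchymal helix-loop-helix factor, had 358 to 517 in wildtype and 348 to 619 in knockout, a difference of 0.07 ± 0.29 (SE) that turned negative under median centring. Alx4, a homeobox gene of the skull vault, was below the filter, with 17.7 to 111 in wildtype and 70.4 to 190 in knockout.

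Both solute carriers that mark fibroblasts of the mature leptomeninges were dim. Slc6a13, a GABA transporter, had 208, 37.4 and 26.6 in wildtype and 460.5, 39.7 and 74.1 in knockout. Slc22a6, an organic anion transporter, had 143, 13.9 and 142 in wildtype and 308, 34.9 and 28.1 in knockout. The pool numbered 1 was the highest of each group for both genes, and neither was tested. With Dpt and Alx4 below the filter as well, the members left for testing were the collagens, the other matrix genes, the signalling genes and 4 of the 5 transcription factors. The signals of a whole gland do not show which cells they came from.

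The genes that act on collagens were closer to the median of all genes than the collagens were. Of 21 tested collagen processing genes 14 had a higher mean in knockout and 7 a lower one, with a median log2 difference of 0.12 and 0 passing the test. P4ha2, a prolyl hydroxylase subunit, had a difference of 0.59 and P3h1, another prolyl hydroxylase, 0.43, which were 0.33 and 0.21 without wildtype pool 3, and Adamts3, which cuts procollagen, −0.41. Wildtype pool 3 was low here too, with a median relative level of −0.47.

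Of 11 tested genes of matrix turnover, 8 had a higher mean and 3 a lower one, with a median log2 difference of 0.05, and 0 passed. Mmp11, a stromal matrix metalloproteinase, had signals of 85.9, 73.2 and 12.3 in wildtype and 245.5, 193 and 203 in knockout. Its wildtype mean of 57.1 was below the filter, which it passed through its knockout signals, so the log2 difference of 1.50 is given as a description only. Timp1 and Timp2, inhibitors of such enzymes, had differences of 0.58 and 0.54, with groups that did not overlap for either, and without wildtype pool 3 they had 0.37 and 0.33. Adamts5, a protease that cuts proteoglycans and was named after its values were seen, had groups apart in the lower direction, with 2030 to 2200 in wildtype and 1525 to 1715 in knockout and a difference of −0.39.

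Among 19 other collagens, 13 had a higher mean and 6 a lower one, with a median of 0.10. Col22a1, Col8a2 and Col16a1 had the smallest p-values of that list, with differences of 0.56, 0.39 and 0.46. Of 27 other matrix and basement membrane genes, 22 had a higher mean and 5 a lower one, with a median of 0.21. Lama5, a laminin chain, had 0.84, Mfap5, a microfibril protein, 0.59, and Ecm1, a secreted matrix protein, 0.63, which was 0.30 without knockout pool 1. In either list 0 genes passed.

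Of 16 tested genes of TGF-beta signalling, the pathway that drives collagen expression, 10 had a higher mean and 6 a lower one, with a median of 0.16. The target Ccn2 had a difference of 0.68, with 2935 in knockout pool 1 against 1297 and 1524 in the other knockout pools and 974 to 1348 in wildtype, and was 0.34 without that pool. The repressor Skil had 0.48, which was 0.14 without wildtype pool 1, and the ligand Tgfb2 −0.34, which was −0.14 without knockout pool 1.

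Of 14 partners of PDGF and IGF, 9 had a higher mean and 5 a lower one, with a median of 0.12. Igfbp3, which binds IGF, had 646, 344 and 255 in wildtype and 540.4, 1079 and 1093 in knockout. The knockout pools 2 and 3 were above the rest and knockout pool 1 was not, as for Pdgfra, and the log2 difference was 1.08 ± 0.40 (SE, unadjusted p = 0.023 in limma, adjusted p = 0.998). Igf2r, a receptor that clears Igf2, and Pdgfb, a PDGF ligand, had 0.50 and 0.49, which were 0.32 without knockout pool 3 and 0.22 without knockout pool 1. The wildtype mean of Pdgfb, 94.6, was below the filter, which it passed through its knockout signals, so its difference is a description only.

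Of 33 other genes of the meninges, 25 had a higher mean in knockout and 8 a lower one, with a median of 0.24, and 0 passed. Tagln, a smooth muscle and fibroblast actin binder, had a difference of 0.69, which was 0.28 without wildtype pool 3, and Msx2, a homeobox gene of the skull and meninges, 0.66, which was 0.27 without wildtype pool 1. Crabp2, a retinoic acid binding protein, had 527, 399 and 499 in wildtype and 847, 101 and 36.5 in knockout. Knockout pool 1 was the highest and the other knockout pools the lowest, and the log2 difference was −1.28 ± 0.76 (SE).

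**Figure D3:**
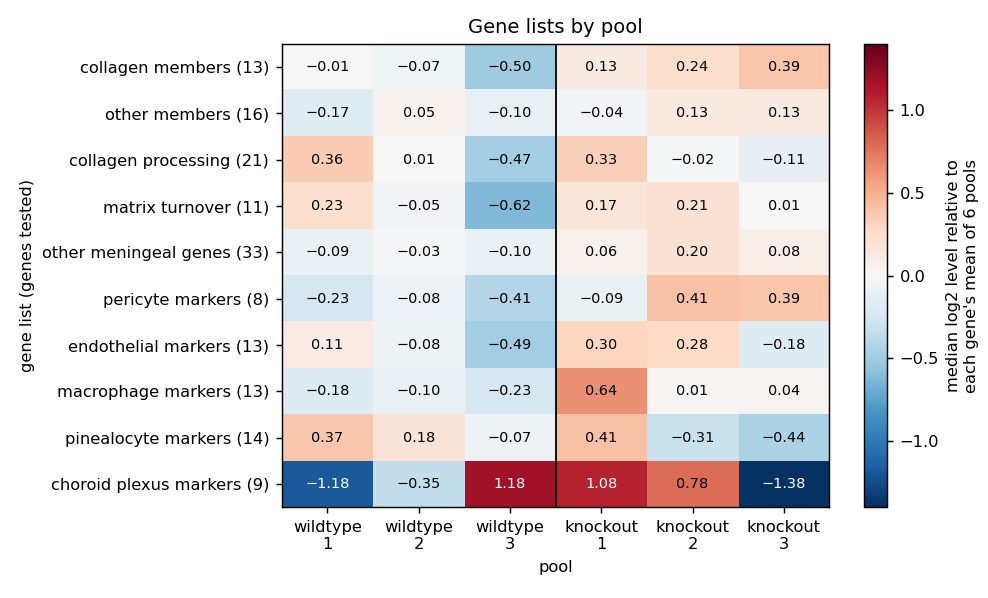
Median log2 level of each gene list (rows, with the number of genes tested) in each pool (columns), relative to each gene's mean over the 6 pools. Collagen members are at −0.50 in wildtype pool 3 and between 0.13 and 0.39 in the knockout pools, and the choroid plexus markers range from −1.38 to 1.18 and run, within each group, in the reverse order of the collagen members.

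Markers of some other cell types also had higher means in knockout. All 8 tested pericyte markers, of 13 measured, had higher means in knockout with a median of 0.40. Summed signals, here and below over all measured markers of a list, were 12270 to 15392 in wildtype and 15163 to 24779 in knockout. Rgs5 and Acta2, genes of mural cells, had differences of 0.57 and 0.64, and that of Rgs5 was 0.20 without wildtype pool 1. Of 13 endothelial markers 12 had higher means, with a median of 0.20 and sums of 13238 to 19159 against 16334 to 24887, and Vwf and Flt1 had 0.83 and 0.15. The part of these vessel cells in the collagen differences was not tested.

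All 13 tested macrophage markers had higher means, with a median of 0.43, and the sums over 14 measured were 9914 to 11833 in wildtype and 14303 to 18758 in knockout. Pf4 and Mrc1, genes of resident macrophages around the brain, had 0.80 and 0.17. In knockout pool 1 the macrophage markers had a median relative level of 0.64, where that of all genes was 0.17. Choroid plexus markers had 1.08 and pericyte markers −0.09 in that pool. Pinealocyte markers went the other way in the group means, with 10 of 14 lower and a median of −0.39. Their sums were 40325 to 59847 against 28271 to 53970. Tph1 had −0.89 ± 0.57 (SE) and Otx2 −0.40 ± 0.28 (SE). The median relative level of the pinealocyte markers was 0.37, 0.18 and −0.07 in wildtype pools 1, 2 and 3. In knockout pools 1, 2 and 3 it was 0.41, −0.31 and −0.44. Knockout pool 1 thus had the highest level of all pools, and levels fell with the pool number in both groups. Within numbers 1, 2 and 3 the median difference of these markers was −0.18, −0.40 and −0.59. Since each array is scaled to a fixed level, a larger share of non-pineal RNA and more RNA per such cell cannot be told apart. Neither was tested.

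Of 7 tested cartilage and bone markers, of 13 measured, 6 had higher means, with a median of 0.27 and sums of 4234 to 5751 in wildtype and 5022 to 7269 in knockout. Sox9 and Hapln1 had differences of 0.46 and −0.44, while the cartilage collagens Col2a1 and Col10a1, named after their values were seen, were below the filter at 46.6 to 200.5 and 6.0 to 32.2. Of 5 tested skin markers 4 had higher means, with a median of 0.19 and sums of 1878 to 2038 against 1264 to 3684, and Krt10 and Krt15 had 0.14 and −0.57. Of 3 tested muscle markers, of 11 measured, 1 had a higher mean, the median was −0.43 and the sums were 1692 to 2002 against 897 to 3027. Myog and Ckm had −0.51 and −0.43, while the tested marker with the higher mean had 1.25 and was higher in knockout within each pool number.

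Choroid plexus markers differed widely between pools of the same group. Their sums were 16212, 57482 and 93627 in wildtype and 108022, 86351 and 13396 in knockout, and 7 of 9 tested markers had a higher mean with a median of 0.29. Otx2, which is on this list and on the pinealocyte list, was among the lower ones at −0.40. Ttr, the transthyretin gene, had signals of 898, 38903 and 60484 in wildtype and 87464, 58637 and 685 in knockout. The median relative level of these markers was −1.18, −0.35 and 1.18 in wildtype pools 1, 2 and 3 and 1.08, 0.78 and −1.38 in knockout pools 1, 2 and 3. Within each group this order was the reverse of that of the collagens, which had −0.01, −0.07 and −0.50, and 0.13, 0.24 and 0.39. The differences within pool numbers come from the same values and add no separate observation. Their choroid plexus medians were 2.04, 1.17 and −2.70 where the collagens had 0.01, 0.38 and 0.80. The part of choroid plexus tissue in the collagen differences was not tested. Slc6a13 was highest in both pools numbered 1, of which wildtype pool 1 was low in Ttr.

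**Figure D4:**
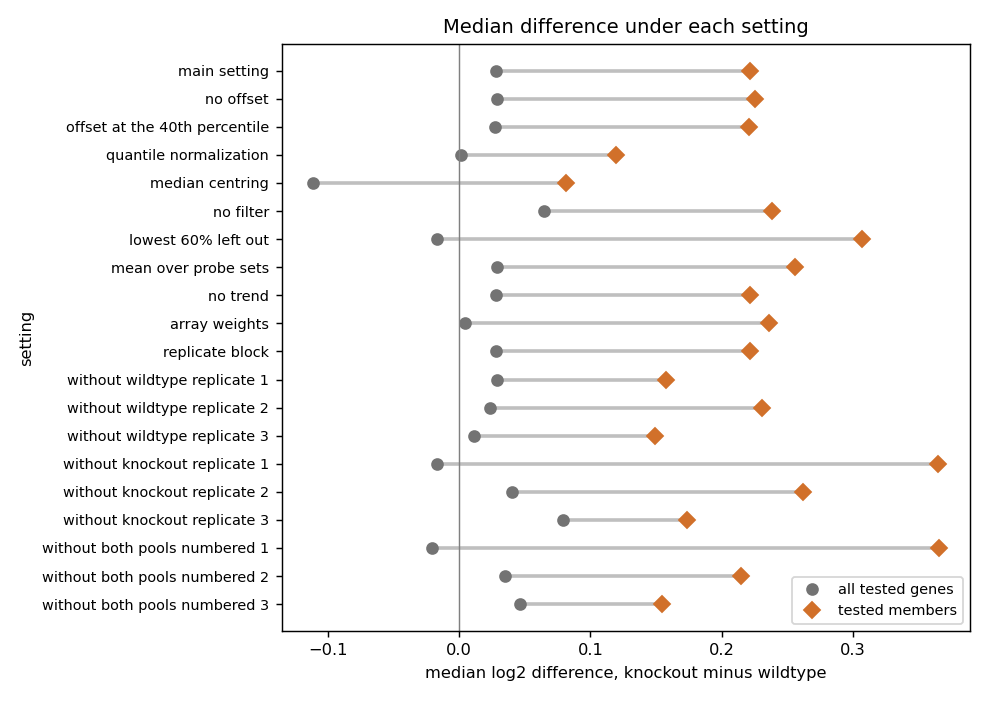
Median log2 difference (knockout minus wildtype, horizontal axis) of all tested genes (grey circles) and of the tested members (orange diamonds) under the main setting and 19 alternatives (vertical axis). The member median lies above that of all genes under every one, and the distance runs from 0.09 without knockout pool 3 to 0.39 without both pools numbered 1. Median centring, no trend and the replicate block cannot change this distance.

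Further probe sets of the members gave mostly the same sign. The members had 62 probe sets, and 25 probe sets of 17 genes beside those used were above the filter. Of these, 21 had the sign of the gene's main probe set and 4 the opposite one, from Col5a1, Ogn, Thbs2 and Fbln1. The Fbln1 probe set had 0.33, where the main one had −0.26. Leaving out single pools turned the sign of the small differences of Col5a2, Dcn, Lum, Ogn, Postn, Penk, Foxc1 and Twist1 as well.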

How the data were processed

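The authors deposited probe set signals, linear intensities for 45037 probe sets on 6 arrays, 3 of each group. The submitters' processing notes list GCOS with no version. The signal algorithm was not given in the sources used here. No detection calls were analysed here, and the 6 arrays limit the precision (median SE 0.34 on the log2 scale). Names came from the platform annotation, with 34945 probe sets naming 1 gene.

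Values were taken as log2(signal + 38.6), the offset being the 20th percentile of all values, which understates the differences of dim genes. After the filter, 12797 genes were compared with limma 3.58.1 under R 4.3.3 (lmFit, eBayes with trend, 4 residual degrees of freedom, two-sided, Benjamini-Hochberg adjusted p under 0.05). The code was tested on simulated data. An exact permutation test of 3 against 3 pools cannot go below p = 0.1, and none is given. Promoters and gene order came from RefSeq, GRCm38.p6.

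Members and lists were chosen with earlier results of these data known. Named genes were Neurod1, all members, the 3 genes of smallest p of each pathway list and of the other meningeal genes, and the 2 brightest genes of each marker list. Deviations of same-numbered pools correlated at 0.32, 0.25 and 0.36 over genes, and the labels give them shared dates, so the numbers pair the pools, and a fit with the number as a block was an alternative. Others were other offsets, normalizations and filters, the mean over probe sets, no trend, array weights and pools left out. Standard errors and p-values are from the fit without the block, except where the block is named. The series' design text calls the pools separate biological samplings.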

Additional observations from a re-analysis of the deposited data

How the results depend on the processing

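Over 19 alternatives, 549 values of single members were recomputed, not all of which could move. No trend, the replicate block and the changed filters leave the differences of single members as they are. Of the 549 values, 529 stayed within the spread and on the same side of the threshold. These 529 include changes of sign, such as those of Dcn under 8 alternatives and of Col5a2 under 7. A further 13 moved beyond 1 SD and 7 passed the threshold. The 7 were Col4a1, Col4a2, Col18a1, Col6a1, Col6a2, Pdgfra and Penk with array weights, where 7 members and 2932 of all genes passed. Those weights were 7.05 and 6.20 for the pools numbered 2 and at most 0.541 for the other arrays, and the estimate did not converge. In the other alternatives no member passed. The count of all genes passing, 1 in the main setting, was 0 with no offset, 0 to 1 with single pools left out, and 0 without both pools numbered 1, 2 or 3. With the replicate block 1 gene and 0 members passed and the member median was 0.22. Members with a higher mean numbered 16 with median centring and 19 to 26 with single pools left out, where the member median ran from 0.15 to 0.37. The collagen values by setting were added after seeing the data. The cause of these changes was not tested.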
